A study of Homo sapiens with 15 samples.

Results

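Transcripts of 5 genes that encode the coat of caveolae were followed through EWS/FLI knockdown and rescue in A673 cells. They are the caveolins CAV1 and CAV2 and the cavins PTRF (cavin-1, also written CAVIN1), SDPR (cavin-2, CAVIN2) and PRKCDBP (cavin-3, CAVIN3). The genes were chosen by name and matched through their Ensembl identifiers, which were ENSG00000105974, ENSG00000105971, ENSG00000177469, ENSG00000168497 and ENSG00000170955 in that order. All 5 were found among the 57820 gene identifiers of the count table, and all 5 reached the minimum for testing, a mean of 1 count per library, with 28793 genes in all.

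A673 is an Ewing sarcoma cell line that carries the EWS/FLI fusion, and every library came from this line. RNA-seq was performed on 15 libraries, 3 in each of 5 conditions. In iLuc cells the shRNA targeted luciferase, so endogenous EWS/FLI was kept, and in iEF cells it targeted EWS/FLI. Both of these carried an empty vector. WT-EF, DAF and Δ22 cells received the EWS/FLI shRNA together with a cDNA, which encoded wildtype EWS/FLI, a mutant with tyrosines of the EWS domain changed to alanine, or a construct without the EWS domain. The shRNA was introduced on day 1 and the cDNA or empty vector on day 5 by retrovirus, and cells were kept in 2 µg/mL puromycin and 400 µg/mL hygromycin B up to harvest at day 16. The line was used because it keeps growing after loss of the fusion, so the values describe 1 line. The labels do not say whether libraries of 1 condition came from separate cultures, while the study's text speaks of replicate runs of knockdown and rescue and of batches between replicate sets. The p-values measure the spread between these libraries. In bulk RNA, fewer cells that transcribe a gene and less RNA per cell cannot be told apart.

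Caveolae are flask-shaped pits of the plasma membrane that buffer membrane tension and gather receptors and signalling proteins. Caveolins are hairpin proteins inserted in the membrane, and CAV2 needs CAV1 to reach the cell surface. Cavins are cytoplasmic proteins that coat and stabilise the pit, and without cavin-1 caveolin stays in flat membrane and caveolae do not form. EWS/FLI is a transcription factor that binds GGAA sites through its FLI1 part, including long GGAA repeats, and both activates and represses genes.

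CAV1 and CAV2 are neighbours on chromosome 7, whereas each cavin gene lies on a chromosome of its own. In GRCh37, CAV2 spans chr7:115927434-116148595 and CAV1 spans chr7:116165048-116201233, both on the plus strand, and the start sites of their canonical transcripts are 25298 bp apart. PTRF spans chr17:40554467-40575274, SDPR spans chr2:192699036-192711814 and PRKCDBP spans chr11:6340176-6341762, all 3 on the minus strand. Antisense transcripts overlap the CAV1, CAV2 and SDPR genes and averaged 16.3 counts for the one inside CAV1, 55 for the most abundant of those that overlap CAV2 and 9.53 for the one at the SDPR start, against 49399, 10071 and 169 counts of the genes themselves. Another antisense lncRNA, whose identifier was not among those of the count table, overlaps PRKCDBP over 1406 bp. The most abundant antisense transcript at CAV2 ends at chr7:116139519, before the canonical CAV2 start at chr7:116139792. Whether reads were assigned by strand is not given in the sources used here, so it is not known how reads within the overlaps were handled.

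Because EWS/FLI binds GGAA, the reference sequence around the start sites was searched for GGAA on both strands. In the GRCh37 genome, 3 runs of at least 4 consecutive GGAA units lie upstream of CAV1, between 1968 and 1799 bases before its canonical start. They hold 4, 16 and 8 units. The stretch is chr7:116163101-116163310, plus strand, with the units of these runs in capitals, and it is shown because it lies between the start sites of the caveolin genes.
CAV1 upstream repeat: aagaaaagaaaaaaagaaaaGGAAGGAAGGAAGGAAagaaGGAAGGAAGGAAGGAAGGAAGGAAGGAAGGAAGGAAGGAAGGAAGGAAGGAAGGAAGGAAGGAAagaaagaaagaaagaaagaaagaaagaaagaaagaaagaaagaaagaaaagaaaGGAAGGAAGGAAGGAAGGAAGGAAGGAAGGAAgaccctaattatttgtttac
Of 15967 tested protein-coding genes, 3.32% had such a run within 5 kb of their canonical start, which CAV2, PTRF, SDPR and PRKCDBP did not. Within 100 kb, 8 runs were found for CAV1 and for CAV2, which share them, 3 for PRKCDBP and none for PTRF or SDPR, and 54.7% of the genes had at least 1. The number of repeats in the A673 genome was not measured here.

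RefSeq promoter windows (from the GRCh38.p14 table) were given for 3 of the 5 members, and their 250 bases before the canonical start were placed on GRCh37 by exact match. They are printed 5′ to 3′ on the strand of the gene with GGAA and its complement TTCC in capitals, because these are the bases EWS/FLI binds. The windows are chr7:116164840-116165089 for CAV1, chr7:116139542-116139791 for CAV2 and chr2:192711815-192712064 on the minus strand for SDPR.
CAV1: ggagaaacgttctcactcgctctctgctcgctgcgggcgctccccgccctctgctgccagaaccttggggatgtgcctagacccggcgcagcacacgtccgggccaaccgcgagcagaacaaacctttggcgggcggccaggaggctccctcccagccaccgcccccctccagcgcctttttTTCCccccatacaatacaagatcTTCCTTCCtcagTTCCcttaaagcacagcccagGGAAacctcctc
CAV2: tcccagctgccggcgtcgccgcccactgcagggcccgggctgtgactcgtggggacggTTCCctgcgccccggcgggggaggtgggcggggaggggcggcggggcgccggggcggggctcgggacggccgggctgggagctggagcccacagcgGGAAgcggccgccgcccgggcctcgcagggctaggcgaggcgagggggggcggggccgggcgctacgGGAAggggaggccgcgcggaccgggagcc
SDPR: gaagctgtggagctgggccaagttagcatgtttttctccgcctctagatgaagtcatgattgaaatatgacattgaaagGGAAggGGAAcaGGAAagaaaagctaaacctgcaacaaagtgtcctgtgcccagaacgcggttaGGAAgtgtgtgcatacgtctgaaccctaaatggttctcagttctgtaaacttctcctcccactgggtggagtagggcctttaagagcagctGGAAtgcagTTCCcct
GGAA occurs 5 times in the CAV1 window, 3 times in that of CAV2 and 6 times in that of SDPR, counting both strands. A GGAA is found in 92.7% of all 35116 windows of this length, with a median of 3. The pair GGAAGGAA occurs once in the CAV1 window, as TTCCTTCC, and in 3.06% of all windows. A match of letters is a description of these windows and not a measured binding site.

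The targeted gene was measured through the FLI1 counts, which hold reads of the fusion and of the FLI1 part of each cDNA and cannot separate them. In CPM, which are counts relative to the TMM-scaled size of a library, FLI1 was 48.0, 47.8 and 52.4 in the iLuc libraries and 12.9, 15.5 and 15.3 in the iEF libraries. It averaged 17.6 CPM ± 1.39 (SD, n = 3) in WT-EF, 24.3 ± 2.64 in DAF and 31.2 ± 6.08 in Δ22. The shRNA of the study targets a region after the coding sequence of EWS/FLI. How much of that region the cDNAs hold was not examined, so FLI1 CPM of rescued cells and of iLuc may not be like measures. The western blots of the study, which show construct protein, were not compared here. WT-EF differed from iEF in FLI1 by a log2 fold change of 0.27 (SE 0.10, adjusted p = 0.0538), and FLI1 was lower in WT-EF than in Δ22 by 0.81 on the log2 scale (−0.81, SE 0.10, adjusted p = 2.58e-05). Adjusted p-values come from edgeR's quasi-likelihood test over all 28793 genes with the Benjamini-Hochberg method, unless an alternative fit or test is named. In an alternative, p was adjusted over the genes tested there. NR0B1 and NKX2-2, targets that EWS/FLI activates, were higher in iLuc than in iEF by log2 fold changes of 3.34 and 2.46. CD99, a surface marker of Ewing sarcoma, averaged 0.013 CPM, and its gene is listed a second time in the table, so its level was not read. Total counts per library ran from 28659475 to 41859880.

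Endogenous EWS/FLI went with more caveolin and less cavin mRNA. In iLuc relative to iEF, CAV1 was 2.56-fold and CAV2 2.89-fold higher, while the 3 cavins were between 9.59-fold (SDPR) and 18.2-fold (PRKCDBP) lower, with PTRF between them. In the ComBat-adjusted table, on the log2(CPM + 1) scale, the log2 fold changes of the cavins were nearer to 0. They were −2.14 for PRKCDBP, −1.94 for SDPR and −2.66 for PTRF, which was then the furthest from 0. This scale understates the change of low genes. PTRF averaged 33.9 CPM in iLuc and 460 CPM in iEF, and the parts of the scale and of the ComBat adjustment were not tested. All 5 members passed the threshold of adjusted p under 0.05 in this comparison, in which 41.6% of all genes tested did. WT-EF moved all 5 from iEF in the same directions (29.9% of all genes passed). DAF moved 3 of 5, CAV1, CAV2 and SDPR (11.2% of all genes), and Δ22 moved 1 of 5, CAV2 (1.3% of all genes). These 4 comparisons share the iEF libraries and are not independent of each other.

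**Figure D1:**
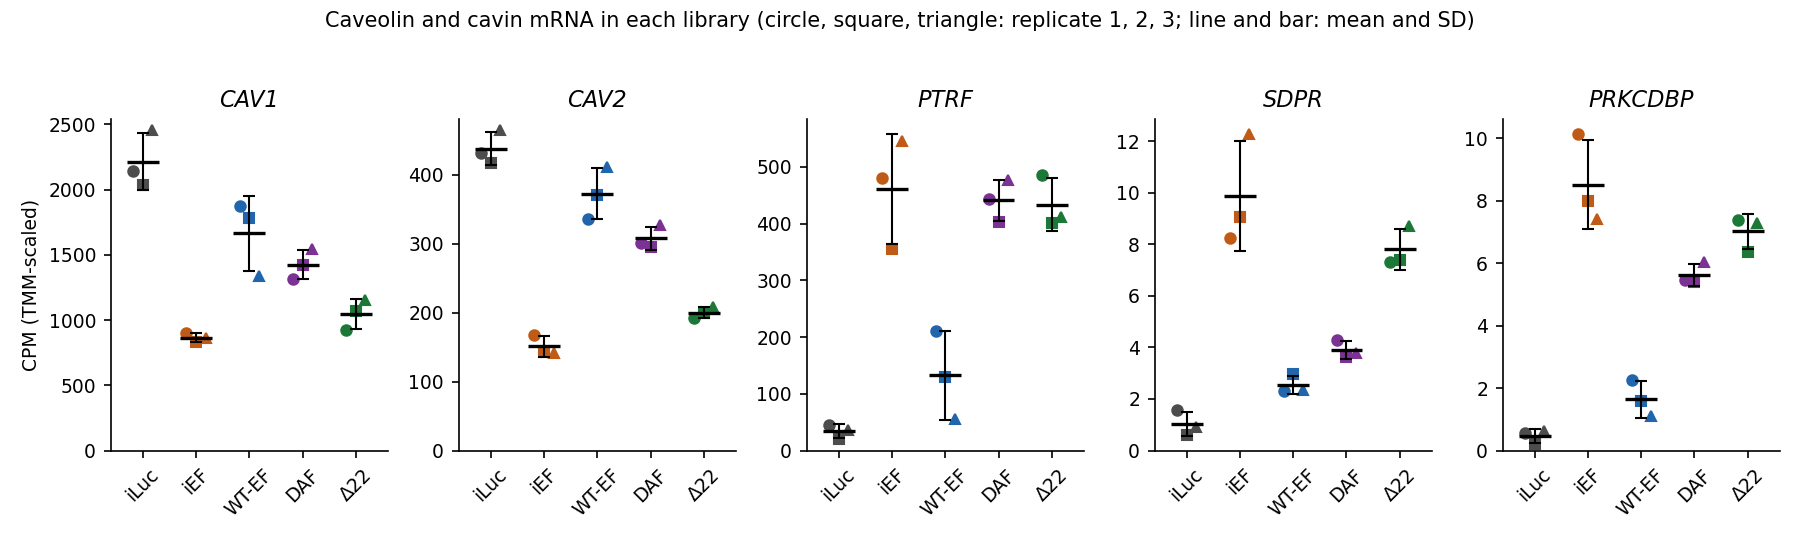
CPM of each member (y axis, linear, from 0) in the 15 libraries, by condition on the x axis, with the mean and SD of 3 libraries in black. The 3 iLuc libraries are the highest for CAV1 and CAV2 and the lowest for PTRF, SDPR and PRKCDBP, and the DAF libraries of PTRF sit among those of iEF and Δ22.

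CAV1, the main structural caveolin, was by far the most abundant member. The iLuc libraries had 2144, 2037 and 2459 CPM and the iEF libraries 898, 829.7 and 866 CPM. WT-EF libraries had 1873, 1783 and 1338 CPM, DAF libraries 1312, 1423 and 1541 CPM, and Δ22 libraries 920.3, 1069 and 1152 CPM. The iLuc libraries lay above all others, WT-EF and DAF overlapped, and DAF, Δ22 and iEF followed in that order without overlap.

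CAV1 was higher than in iEF by a log2 fold change of 1.36 in iLuc (SE 0.13, adjusted p = 8.88e-07), 0.95 in WT-EF (SE 0.13, adjusted p = 5.46e-05) and 0.72 in DAF (SE 0.13, adjusted p = 0.00229). For DAF the call was lost without replicate 2 of all conditions (log2 fold change 0.69, adjusted p = 0.0651). Δ22 exceeded iEF by 0.28 (SE 0.13), which did not pass the test (adjusted p = 0.362). Between constructs, CAV1 was higher in WT-EF than in Δ22 by 0.67 (SE 0.13, adjusted p = 0.000971), a call lost without replicate 1 of all conditions (0.48, adjusted p = 0.0511). WT-EF and DAF differed by 0.23 (SE 0.13, adjusted p = 0.219), and DAF and Δ22 by 0.45 (SE 0.13, adjusted p = 0.130). Replicate 3 of WT-EF was the lowest of its condition for CAV1, and without it WT-EF exceeded DAF by 0.42 with an adjusted p of 0.00457 and DAF exceeded Δ22 by 0.47 with an adjusted p of 0.00568. In all, the difference between WT-EF and DAF passed in 3 of the 25 alternatives and that between DAF and Δ22 in 6, including the DESeq2 Wald test (adjusted p = 0.0493).

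CAV2, the partner of CAV1, followed the same order of conditions. The iLuc libraries had 432, 416 and 464 CPM and the iEF libraries 168, 143 and 142 CPM. WT-EF libraries had 336, 371 and 411 CPM, DAF libraries 300.3, 295 and 327 CPM, and Δ22 libraries 192, 199 and 208 CPM. No pair of neighbouring conditions overlapped, although the gap between the lowest iLuc and the highest WT-EF library, and that between the lowest WT-EF and the highest DAF library, were each narrower than the spread within a condition.

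The log2 fold change of CAV2 over iEF was 1.53 in iLuc (SE 0.09, adjusted p = 1.04e-08), 1.30 in WT-EF (SE 0.09, adjusted p = 1.98e-07), 1.02 in DAF (SE 0.09, adjusted p = 1.39e-05) and 0.40 in Δ22 (SE 0.09, adjusted p = 0.0419). The Δ22 call was lost in 16 of 25 alternative analyses, among them the fit without a replicate block (0.40, adjusted p = 0.0718). DAF was higher than Δ22 by 0.62 (SE 0.09, adjusted p = 0.00261), a call lost without replicate 2 of all conditions (0.65, adjusted p = 0.0972). WT-EF was higher than Δ22 by 0.90 (SE 0.09, adjusted p = 4.51e-06) and higher than DAF by 0.28 (SE 0.09, adjusted p = 0.0307). The last of these calls was lost in 9 of the 25 alternatives, in which the adjusted p reached 0.223.

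PTRF, the cavin that caveolae require, was the most abundant cavin and the one whose level in DAF was nearest to that in iEF. The iLuc libraries had 44.6, 20.2 and 36.9 CPM and the iEF libraries 480.2, 355 and 546 CPM. WT-EF libraries had 211, 129.5 and 56.1 CPM, DAF libraries 443, 403 and 476 CPM, and Δ22 libraries 487, 400.4 and 412 CPM. iLuc libraries were the lowest, WT-EF libraries were scattered above them without overlap, and the 9 libraries of iEF, DAF and Δ22 were intermixed above both.

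Relative to iEF, PTRF fell by 3.81 on the log2 scale in iLuc (SE 0.34, adjusted p = 4.24e-07) and fell by 1.85 in WT-EF (SE 0.31, adjusted p = 0.000377). DAF and iEF differed in PTRF by −0.05 (SE 0.30, adjusted p = 0.955), and Δ22 and iEF by −0.09 (SE 0.30, adjusted p = 0.947). The sign of both small differences changed when the iEF library of replicate 3 was left out (0.20 and 0.15). In the direct comparisons PTRF was 3.48-fold lower in WT-EF than in DAF (log2 fold change −1.80, SE 0.31, adjusted p = 0.000556) and 3.39-fold lower than in Δ22 (−1.76, SE 0.31, adjusted p = 0.000543). The WT-EF libraries spread over a wider range of PTRF than those of any other rescue, with replicate 3 the lowest.

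SDPR, a cavin that helps shape the caveolar membrane, was a low-abundance transcript. The iLuc libraries had 1.56, 0.617 and 0.925 CPM and the iEF libraries 8.25, 9.07 and 12.3 CPM. WT-EF libraries had 2.33, 2.96 and 2.34 CPM, DAF libraries 4.29, 3.61 and 3.79 CPM, and Δ22 libraries 7.30, 7.40 and 8.72 CPM. Here DAF libraries lay below all Δ22 and iEF libraries and above all WT-EF libraries, and only Δ22 and iEF overlapped.

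SDPR fell by 3.26 on the log2 scale in iLuc relative to iEF (SE 0.27, adjusted p = 1.92e-07), fell by 1.94 in WT-EF (SE 0.24, adjusted p = 2.68e-05) and fell by 1.34 in DAF (SE 0.24, adjusted p = 0.00229). Δ22 differed from iEF by −0.33 (SE 0.23, adjusted p = 0.594). The DAF call held in all 25 alternatives, with log2 fold changes of −0.95 or further below 0. WT-EF and DAF differed by −0.61 (SE 0.24, adjusted p = 0.0820), which did not pass, although it did in 4 of the 25 alternatives. The fitted level of DAF was 2.00-fold below that of Δ22, a difference that also missed the threshold (SE 0.24 on the log2 scale, adjusted p = 0.0570). The DAF and Δ22 difference passed in 8 of the 25 alternatives, including the DESeq2 Wald test (adjusted p = 0.00209). WT-EF was lower than Δ22 by 1.61 on the log2 scale (−1.61, SE 0.24, adjusted p = 0.000149).

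PRKCDBP, named for its binding to protein kinase C delta, had the widest range in relative terms. The iLuc libraries had 0.550, 0.224 and 0.627 CPM, which are 18, 8 and 21 counts, and the iEF libraries 10.1, 7.99 and 7.42 CPM. WT-EF libraries had 2.27, 1.59 and 1.09 CPM, DAF libraries 5.45, 5.38 and 6.04 CPM, and Δ22 libraries 7.38, 6.36 and 7.29 CPM. No neighbouring conditions overlapped, but DAF, Δ22 and iEF were close together.

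PRKCDBP fell by 4.19 on the log2 scale in iLuc relative to iEF (SE 0.29, adjusted p = 3.61e-08) and fell by 2.37 in WT-EF (SE 0.24, adjusted p = 4.68e-06). The differences of DAF from iEF (−0.58, SE 0.23, adjusted p = 0.126), of Δ22 from iEF (−0.27, SE 0.22, adjusted p = 0.687) and of DAF from Δ22 (−0.31, SE 0.23, adjusted p = 0.743) did not pass. For DAF and iEF the difference passed in the fit of only the 6 libraries compared (−0.57, adjusted p = 0.0397) and without replicate 3 of all conditions (−0.70, adjusted p = 0.0367). PRKCDBP was 3.47-fold lower in WT-EF than in DAF (log2 fold change −1.79, SE 0.25, adjusted p = 8.40e-05).

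**Figure D2:**
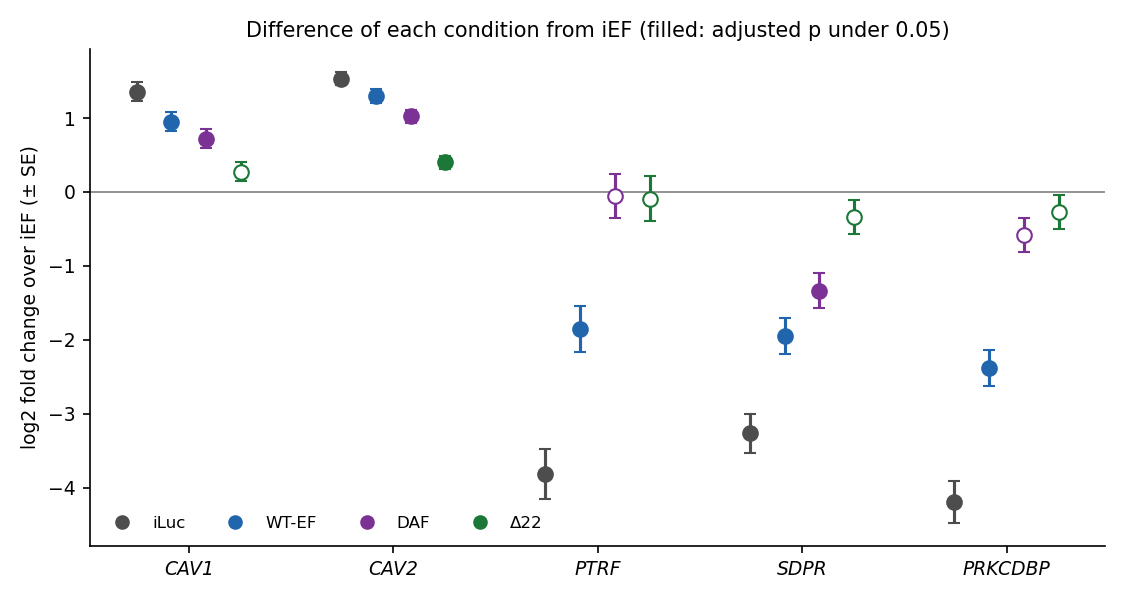
Fitted log2 fold change over iEF (y axis, with SE) of each member in iLuc, WT-EF, DAF and Δ22. CAV1 and CAV2 lie above 0 and the cavins below it in iLuc and WT-EF, and for DAF the filled points, which passed the test, are those of CAV1, CAV2 and SDPR.

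Rescued cells were then compared with cells that had never lost EWS/FLI. Of the 5 members, 4 differed between WT-EF and iLuc, against 19.7% of all genes. PTRF, SDPR and PRKCDBP were higher in WT-EF than in iLuc by log2 fold changes of 1.96 (SE 0.32, adjusted p = 0.000623), 1.32 (SE 0.27, adjusted p = 0.00312) and 1.81 (SE 0.30, adjusted p = 0.000665). The SDPR call was lost without replicate 2 of all conditions (0.91, adjusted p = 0.119). CAV1 was lower in WT-EF (−0.41, SE 0.13, adjusted p = 0.0366), a call that 15 of 25 alternatives did not keep and that became −0.18 (adjusted p = 0.204) without replicate 3 of WT-EF. CAV2 differed by −0.23 (SE 0.09, adjusted p = 0.0833).

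The direct comparisons of constructs called 3 of 5 members between WT-EF and DAF (28.5% of all genes), namely CAV2, PTRF and PRKCDBP. Between WT-EF and Δ22 all 5 were called (30.3% of all genes), and between DAF and Δ22 1 of 5 was called, CAV2 (1.33% of all genes). FLI1 averaged 17.6 CPM in WT-EF, 24.3 in DAF and 31.2 in Δ22. The part of construct level in these differences was not tested.

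To place each construct between the depleted and the undepleted state, the difference of a construct from iEF was divided by that of iLuc from iEF in CPM, within each set of libraries that share a replicate number. WT-EF regained 62.3% ± 28.3 of the difference for CAV1 (SD, n = 3), 76.8% ± 11.4 for CAV2, 75.1% ± 18.5 for PTRF, 82.8% ± 9.09 for SDPR and 85.9% ± 6.30 for PRKCDBP. The low and widely spread CAV1 value came from set 3, with 29.6% against 78.2% and 79.0% in the others.

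DAF regained 41.6% ± 7.96 for CAV1, 54.4% ± 3.78 for CAV2 and 66.2% ± 7.90 for SDPR. For PTRF it regained 2.63% ± 14.9, with −14.3% in set 2, and for PRKCDBP 34.2% ± 14.2. The SDPR share of DAF exceeded its PTRF share in each of the 3 sets (59.2% against 8.49%, 64.6% against −14.3% and 74.8% against 13.7%), a difference between genes that was not tested. Δ22 regained 13.2% ± 9.90 for CAV1, 16.7% ± 6.56 for CAV2, 21.8% ± 8.72 for SDPR and 17.1% ± 13.8 for PRKCDBP. Its share for PTRF was 3.78% ± 20.5, with sets on either side of 0. On the log2(CPM + 1) scale the share of DAF was 66.6% for CAV2, 53.0% for CAV1, 46.3% for SDPR, 18.6% for PRKCDBP and 1.34% for PTRF.

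**Figure D3:**
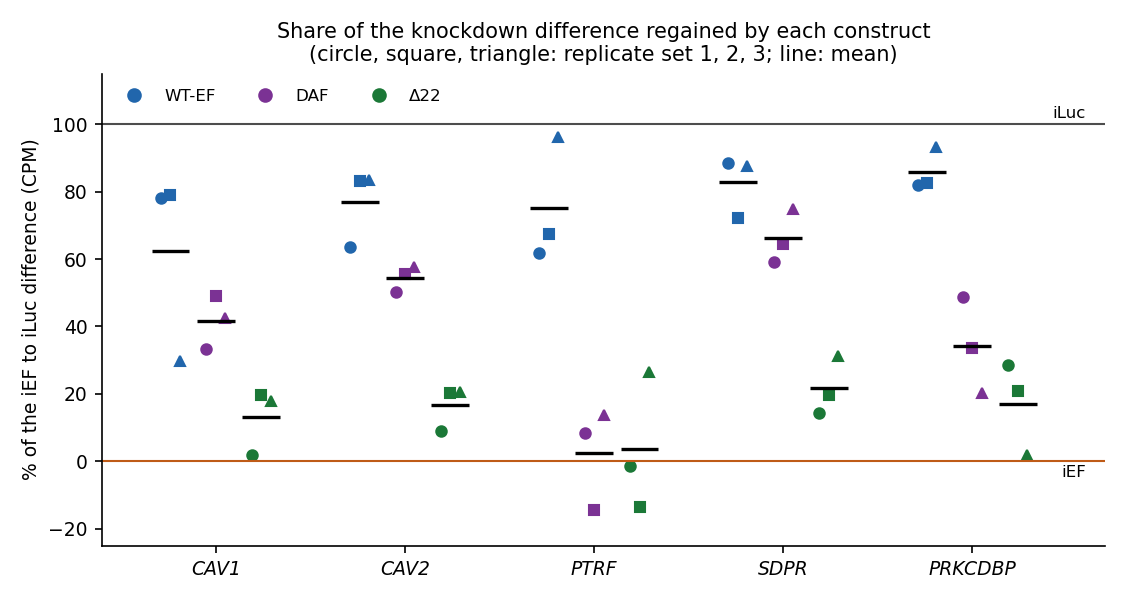
Percentage of the iEF to iLuc difference in CPM that each construct regained (y axis, 0 is iEF and 100 is iLuc), for each member and replicate set, with the mean as a line. WT-EF points lie above those of Δ22 for every member, and DAF points lie around 0 for PTRF and between 59.2% and 74.8% for SDPR.

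To set levels of different genes side by side, CPM were divided by the length of the canonical transcript. Which transcripts of a gene were expressed was not examined, so comparisons between genes are approximate. Per kb, iLuc cells had 901.3 CPM of CAV1, 148 of CAV2, 9.49 of PTRF, 0.339 of SDPR and 0.454 of PRKCDBP, so caveolin transcripts outnumbered cavin transcripts by far. In iEF cells CAV1 was at 352 CPM per kb, PTRF at 129, CAV2 at 51.1, PRKCDBP at 8.28 and SDPR at 3.23, so PTRF ranked above CAV2. The summed cavins relative to the summed caveolins were 0.00975 ± 0.00351 in iLuc (SD, n = 3), 0.348 ± 0.0624 in iEF, 0.0474 ± 0.0227 in WT-EF, 0.191 ± 0.0151 in DAF and 0.268 ± 0.0553 in Δ22. The lowest Δ22 library, at 0.232, was above the highest DAF library, at 0.206, and the WT-EF libraries reached 0.0710 at most, so only Δ22 and iEF overlapped. PTRF made up between 89.6% and 95.2% of the cavin total per kb in every library.

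CAV1 to CAV2 ratios moved little, with means between 5.47 in WT-EF and 6.92 in iEF. Replicate 3 of WT-EF stood apart at 3.92, the lowest of the 15 libraries, with the lowest CAV1 and the highest CAV2 of its condition. Within the cavins, the ratio of SDPR to PTRF was 0.0104 ± 0.00101 in DAF, with libraries from 0.00930 to 0.0113, against 0.0201 to 0.0299 in iEF and 0.0175 to 0.0247 in Δ22. It ran from 0.0293 to 0.0409 in iLuc and from 0.0129, close to the highest DAF library, to 0.0488 in WT-EF. The 3 DAF libraries had the lowest SDPR to PTRF ratios of all 15. With 3 libraries against 3, an exact two-sided permutation test cannot go below p = 0.10, so no test of this ratio was made. The ratio of PRKCDBP to PTRF in DAF, from 0.0427 to 0.0464, lay within the range of the WT-EF libraries.

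**Figure D4:**
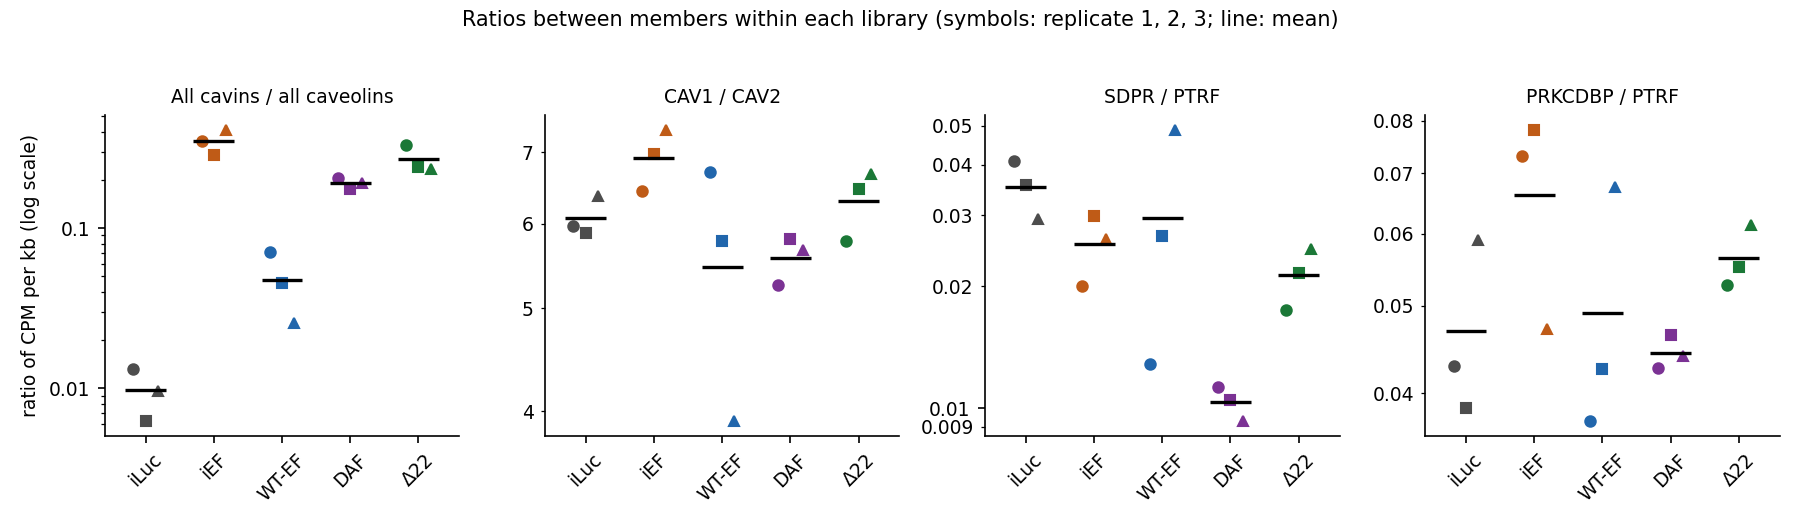
Ratios of CPM per kb between members (y axis, log scale) in each library by condition, with group means as lines. The ratio of all cavins to all caveolins is highest in iEF, with the highest library at 0.410, and lowest in iLuc, and the 3 DAF libraries have the lowest SDPR to PTRF ratios.

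The remaining caveolin and cavin differed from these. MURC (cavin-4, a muscle cavin) averaged 4.85 CPM and was higher in iLuc than in iEF by 1.51 (adjusted p = 4.97e-07) and in WT-EF by 0.65 (adjusted p = 0.00195), whereas in DAF it differed from iEF by −0.10 (adjusted p = 0.745). The muscle caveolin CAV3 averaged 0.0743 CPM and its differences did not pass. Markers of other cell types rich in caveolae had low sums, though in some libraries that of striated muscle exceeded the PRKCDBP mean of WT-EF, 1.65 CPM. The 3 endothelial markers read (VWF, CDH5 and TEK) summed to between 0.196 and 0.976 CPM in every library, the 3 adipocyte markers (ADIPOQ, PLIN1 and LEP) to at most 0.309 CPM, and the 4 striated muscle markers (ACTA1, CKM, MYH2 and DES) to between 0.281 and 2.27 CPM. The muscle sum ran from 0.281 to 0.734 CPM in iLuc and from 1.05 to 2.18 CPM in iEF, and its part in the cavin difference was not tested.

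Transcripts for proteins of the caveolar neck and its scaffold were counted next. Of 13 such genes, 10 were lower in iLuc than in iEF and the other 3 did not pass, with a median log2 fold change of −0.89 against 0.04 for all genes, of which 41.6% passed. The named members of the list, the most abundant ones that passed, were FLNA (filamin A, an actin crosslinker, −0.89), EHD3 (a membrane-shaping ATPase, −4.55), DNM2 (dynamin 2, which cuts vesicles off the membrane, −0.49) and PACSIN2 (a protein that bends caveolar membrane, −0.52). EHD2, which rings the caveolar neck, was chosen after its values were seen. EHD2 fell by 4.72 on the log2 scale in iLuc relative to iEF (adjusted p = 2.05e-09) and fell by 2.22 in WT-EF (adjusted p = 1.23e-06). In DAF it differed from iEF by 0.24 (adjusted p = 0.484).

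WT-EF lowered 11 of the 13 relative to iEF (median −0.82 against −0.01 for all genes, of which 29.9% passed). DAF lowered 2 of 13, in a comparison in which 11.2% of all genes passed, EHD3 (−0.99, adjusted p = 0.00420) and PACSIN3 (−1.56, adjusted p = 0.000123), with a median of −0.11. PACSIN3 differed between iLuc and iEF by −0.09 without passing (adjusted p = 0.726). It was lower in WT-EF than in iLuc (−1.12, adjusted p = 0.000603), so its fall in DAF was not towards the iLuc level. In Δ22 the edgeR test called 0 of the 13, against 2 at an unadjusted p under 0.05 and 2 with the DESeq2 Wald test, and the median was 0.06.

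Other routes into the cell were counted in the same way. Of 15 genes of the clathrin coat, 12 were lower and 1 higher in iLuc than in iEF (median −0.55 against 0.04 for all genes, of which 41.6% passed), among them CLTC, the clathrin heavy chain (−0.56), PICALM, an adaptor that links clathrin to membrane (−1.37), AP2M1, a subunit of the AP-2 adaptor (−1.27), and CLTA, a clathrin light chain (−0.47). WT-EF lowered 11 and raised 1, with 29.9% of all genes called. In DAF, with 11.2% of all genes called, the edgeR test called 2 genes higher and 0 lower, and 0 were lower also at an unadjusted p under 0.05 and with the DESeq2 Wald test. Of the 3 genes of flotillin rafts, FLOT1 (−0.74) and STOM (−1.11) were lower in iLuc, and FLOT2 differed by −0.02 without passing the test (adjusted p = 0.943). In DAF, STOM was higher than in iEF (0.59, adjusted p = 0.0154).

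**Figure D5:**
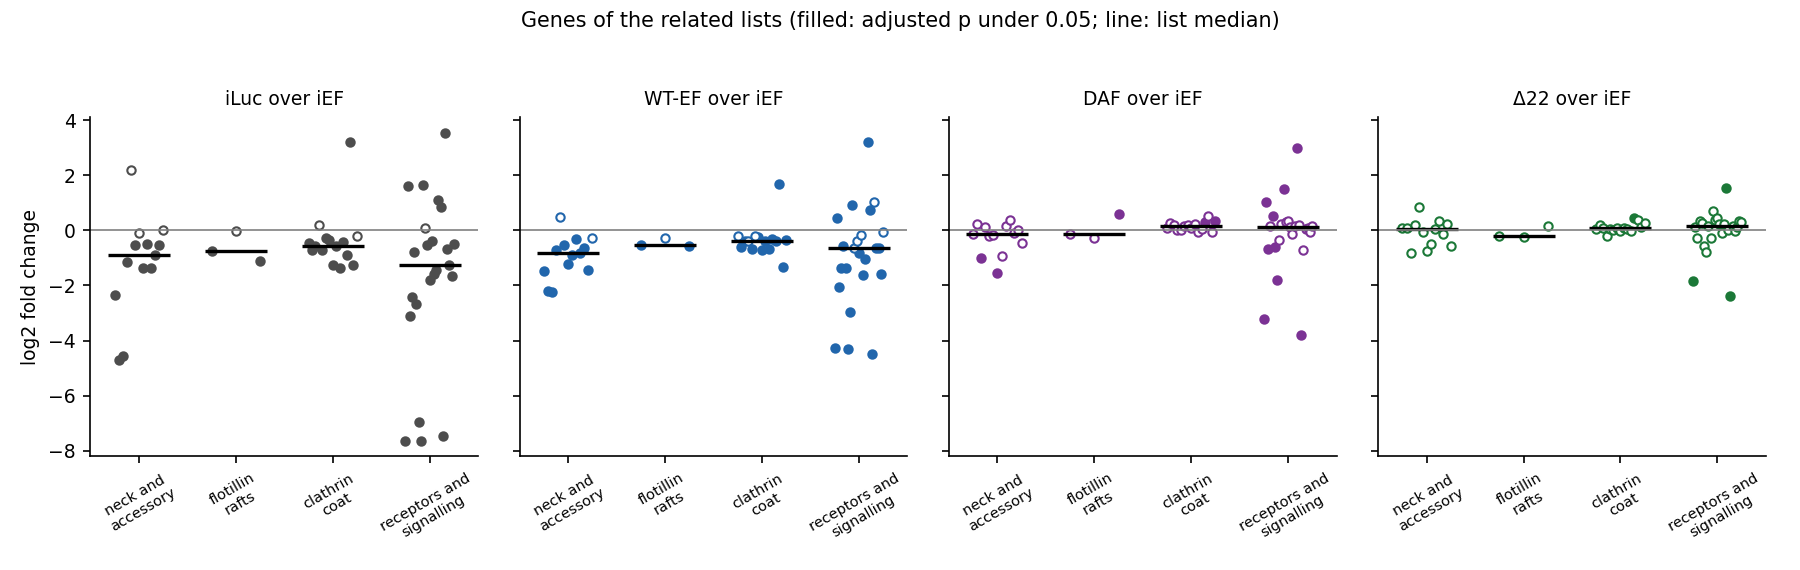
Log2 fold change over iEF (y axis) of each gene in 4 related lists, for iLuc, WT-EF, DAF and Δ22, with the list median as a line. Most points of the neck, clathrin and receptor lists lie below 0 in iLuc and WT-EF and around 0 in Δ22.

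Profiles most like those of the members were sought among 13177 genes averaging at least 50 counts, as the lowest root mean square difference of log2 CPM over the 15 libraries after each gene was centred on its mean. The likeness rests on the same libraries as the levels above and is a description. YPEL5 (0.17), PATJ (0.20) and ZC3H8 (0.20) were nearest to CAV1, with CAV2 ranking 5 at 0.21. C3orf33 (0.17), CAV1 (0.21) and ZDHHC3 (0.21) were nearest to CAV2. For PTRF they were PARVA (0.22), GBE1 (0.22) and EMP1 (0.26), with PRKCDBP ranking 17 (0.31) and SDPR ranking 490 (0.72).

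PRKCDBP was nearest to TRAM2 (0.23), S100A6 (0.25) and TGFB1I1 (0.27), with PTRF ranking 13. SDPR had no neighbour as close, the nearest being TMTC1 (0.36), SRPX (0.36) and ARSI (0.36), whose log2 fold changes of DAF over iEF were −1.63, −1.26 and −1.23. The genes nearest to PTRF had 0.23, 0.20 and −0.42 in that comparison. PTRF and PRKCDBP were thus closer to each other than either was to SDPR.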

How the data were processed

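RNA-seq of 15 A673 libraries was analysed from the gene counts that the authors deposited, and libraries were grouped by the condition and replicate number of the deposited labels. The authors aligned paired-end reads of total RNA to hg19 with STAR (2.5.1b in the submitters' processing notes) and counted them per gene with htseq-count in intersection-strict mode. These deposited counts are whole numbers without normalization. A second deposited table holds the authors' ComBat-adjusted counts of 27002 genes, decimal values treated as signal, and was used as an alternative. Deposited columns of the authors' own fold changes and p-values were not used, nor were 3 columns of other samples.

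Identifiers were matched to symbols with GENCODE v44lift37 (GRCh37), by which 43521 of 57820 had a symbol. Genes with a mean of at least 1 count per library entered the fit, made in R 4.3.3 with edgeR 4.0.16 (TMM, quasi-likelihood test, all 15 libraries, replicate number as a block because the study adjusts each replicate set), in 8 comparisons, with Benjamini-Hochberg adjustment and a threshold of 0.05. CPM are TMM-scaled, and per-kb values divide by the canonical transcript. Deviations from group means correlated with a median r of 0.185 over 30 pairs of libraries with the same number (21 above 0.1) and of −0.0842 over 60 pairs with different numbers. For DAF with Δ22, r was 0.747, 0.711 and 0.78 in sets 1, 2 and 3. For WT-EF with iEF it was 0.394, −0.111 and −0.183, so the number did not pair these libraries in every set. The pairing by number comes from the labels, which do not say what a number shares. Libraries of 1 condition differed by more than counting noise in all 15 pairs (chi-square per gene from 15.1 to 98.8).

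The members and gene lists were chosen with earlier results of these data known. Genes named are the 5 members, FLI1, the up to 4 most abundant genes of each list that passed in iLuc against iEF (all of a list of 5 or fewer), the 2 nearest protein-coding genes on either side of each locus (1 of them is not reported here) and the 3 most alike profiles of each member, apart from those said to be chosen after their values were seen. The endothelial marker PECAM1 was not analysed here. Alternatives used no replicate block, DESeq2 1.42.0 size factors or its Wald test, other filters, limma 3.58.1 on log2(CPM + 1) of the ComBat-adjusted table, only the 6 libraries of a comparison, and leaving out each replicate or library in turn.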

Additional observations from a re-analysis of the deposited data

How the results depend on the processing

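The log2 fold changes of the 5 members in 8 comparisons were recomputed in 25 alternatives each, and of the 1000 values 922 kept their direction and their side of the threshold, 44 lost a call, 24 gained one and 10 changed sign. For 24 of the 40 values no alternative changed the direction or the call. All members stayed called in iLuc against iEF and in WT-EF against iEF. The count for Δ22 against iEF went from 1 to 0 without the replicate block and with only the 6 libraries compared, and ran from 0 to 1 when replicates or libraries were left out. The replicate block changed no other call. The count for DAF against Δ22 went from 1 to 3 with no filter on low counts, with only the 6 libraries compared, with the DESeq2 Wald test and with limma on the ComBat-adjusted table, and ran from 0 to 3 over the fits without a replicate or library. That for WT-EF against iLuc ran from 2 to 4 over those fits, that for WT-EF against DAF from 2 to 4, that for DAF against iEF from 2 to 4 and that for WT-EF against Δ22 from 4 to 5.

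The 10 changes of sign were all in PTRF differences near 0. DAF against iEF became 0.035 in the ComBat-adjusted table with limma and ran from −0.17 to 0.20 over the fits without a replicate or library. Over the same fits Δ22 against iEF ran from −0.22 to 0.15 and DAF against Δ22 from −0.077 to 0.21, the lowest without replicate 3 of DAF. The following are the regained shares that moved by at least their SD on the log2(CPM + 1) scale. In DAF they became 53.0% for CAV1, 66.6% for CAV2, 46.3% for SDPR and 18.6% for PRKCDBP. In WT-EF they became 51.6% for PTRF, 67.4% for SDPR and 69.8% for PRKCDBP, and in Δ22 25.7% for CAV2 and 11.5% for SDPR. The cause of these changes was not tested, apart from the scale, which by its construction gives more weight to low levels. Depth limited SDPR and PRKCDBP in iLuc most, where libraries held between 8 and 51 counts of either gene.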

Other observations

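The nearest protein-coding genes on either side of each locus were read as well, at distances from 13908 bp (STAT3) to 3728886 bp (SLC39A10). Beyond CAV1 on chromosome 7 lies MET, the receptor of hepatocyte growth factor, which fell by 4.59 on the log2 scale in iLuc relative to iEF (adjusted p = 8.38e-08) and fell by 1.55 in DAF (adjusted p = 0.00380), opposite in direction to the caveolins. The following gene, CAPZA2, a subunit of actin capping protein, fell by 0.65 in iLuc (adjusted p = 1.15e-05). On the other side of CAV2, TES, a focal adhesion protein, differed by 0.12 (adjusted p = 0.453), and TFEC, a transcription factor of the MiT family, was higher by 1.89 in iLuc (adjusted p = 0.000482), 4.22 in WT-EF (adjusted p = 7.67e-07) and 3.70 in DAF (adjusted p = 2.50e-05). In Δ22, TFEC was higher than in iEF by 1.98 (adjusted p = 0.0132). TFEC averaged 1.09 CPM in iEF, 3.94 in iLuc, 19.9 in WT-EF, 14.4 in DAF and 4.40 in Δ22.

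Next to PTRF, STAT3, a signal transducer of cytokine receptors, fell by 1.00 on the log2 scale in iLuc relative to iEF (adjusted p = 8.75e-06). STAT3 was instead higher than in iEF by 0.39 in WT-EF (adjusted p = 0.0218) and 0.40 in DAF (adjusted p = 0.0431). The related STAT5A fell by 3.96 in iLuc (adjusted p = 3.25e-06) and by 1.54 in WT-EF (adjusted p = 0.00333). ATP6V0A1, a subunit of the vacuolar proton pump, was higher by 0.47 in iLuc (adjusted p = 0.0125) and 0.53 in WT-EF (adjusted p = 0.00857). NAGLU, a lysosomal enzyme, fell by 0.76 in iLuc (adjusted p = 0.00563) and by 0.93 in WT-EF (adjusted p = 0.00213). Next to SDPR, NABP1 fell by 0.69 in iLuc (adjusted p = 8.73e-05) and by 0.44 in WT-EF (adjusted p = 0.00553). NABP1 was instead higher than in iEF by 0.66 in DAF (adjusted p = 0.00107) and 0.47 in Δ22 (adjusted p = 0.0400). TMEFF2 and SLC39A10, which lie 101954 and 3728886 bp from SDPR, differed in iLuc by −0.32 and 0.17 without passing. Next to PRKCDBP, SMPD1, the acid sphingomyelinase, differed by −0.15 in iLuc (adjusted p = 0.715) and was higher by 0.80 in WT-EF (adjusted p = 0.0455). APBB1 was higher by 0.75 in iLuc (adjusted p = 0.000866) and 0.66 in WT-EF (adjusted p = 0.00367). CNGA4 averaged at most 0.105 CPM in a condition and CCKBR was below the count minimum.

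Receptors and signalling proteins known from caveolae were mostly lower with endogenous EWS/FLI. Of 23 such genes, 17 were lower and 5 higher in iLuc than in iEF, with a median log2 fold change of −1.24 against 0.04 for all genes, of which 41.6% passed. The most abundant ones that passed were ATP2B1 (−1.24) and ATP2B4 (−1.64), calcium pumps of the plasma membrane, FYN (−1.81), a Src-family kinase, and TGFBR2 (−2.44), a receptor of TGF-beta. WT-EF lowered 14 and raised 4 of the 23 (median −0.65), with 29.9% of all genes called. DAF lowered 5 and raised 4, with a median of 0.11 and 11.2% of all genes called. The lowered ones, named after their values were seen, were EGFR (−3.21), AQP1 (−3.81), EDNRB (−1.79), TGFBR1 (−0.69) and EDNRA (−0.61). The raised ones, likewise named afterwards, were CD36 (3.00), NOS3 (1.52), INSR (1.02) and BMPR2 (0.52), of which BMPR2 was lower in iLuc than in iEF (−0.80). With 1.3% of all genes called, Δ22 lowered EGFR (−1.82) and AQP1 (−2.39) and raised CD36 (1.55), a fatty acid transporter that DAF raised by 3.00.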
